A study of Mus musculus with 15 samples.

Results

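The mature miRNAs of the mouse miR-26 family were described here in liver across 3 diets. Members were taken by name, as every array miRNA called miR-26a or miR-26b with a 5p or 3p arm, and 3 of the 696 mouse miRNAs on the array met this rule: mmu-miR-26a-5p, mmu-miR-26b-5p and mmu-miR-26b-3p. The mice were male, carried the strain label B6C57/J and entered the diets at 1 year of age, to stay on them for the rest of their lives. The 5 SD mice had free access to the AIN-93G standard diet, the 5 CR mice received that diet with a caloric restriction of 40%, and the 5 Met mice had free access to AIN-93G with 0.1% w/w metformin, the oral drug that lowers blood glucose. One sample of liver RNA per mouse was labeled with Cy3 and hybridized to its own 1-color array, so each group held 5 arrays, and the age at which livers were taken is not given in the sources used here.

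A mature miRNA guides the silencing complex to messenger RNAs that pair with its seed, bases 2 to 8 counted from its 5′ end, and lowers their translation and stability. The miR-26 family is made from introns of the CTDSP genes, which encode small phosphatases of the RNA polymerase II tail, and is produced together with these host transcripts. In liver, miR-26a is known for restraining the cell cycle and for acting on insulin signaling, gluconeogenesis and lipid synthesis, and it is often reduced in liver tumors. miR-26b shares its seed and many of its targets.

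The mature sequences show how alike the members are, and how little sets the 5p members apart. They are written 5′ to 3′ from RefSeq on GRCm38.p6, with the seed in capitals.
miR-26a-5p: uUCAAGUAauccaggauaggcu
miR-26b-5p: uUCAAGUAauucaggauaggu
miR-26b-3p: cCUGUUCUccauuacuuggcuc
The 5p members shared all 7 bases of the seed and 19 of the 21 bases that could be set side by side from the 5′ end. The substitutions from miR-26a-5p to miR-26b-5p were C11U and C21U, and miR-26a-5p was 22 bases long against 21. G and C made up 40.9% of miR-26a-5p and 33.3% of miR-26b-5p. No other array miRNA with a RefSeq sequence had this seed, in a table that held 542 of the 696 array names.

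Mature miR-26a-5p comes from 2 genes and miR-26b-5p from 1, so an array value of miR-26a-5p is a sum over both of its genes. The hairpins are shown with the 5p member in capitals, because they are what separates the copies that the mature sequence does not.
Mir26a-1: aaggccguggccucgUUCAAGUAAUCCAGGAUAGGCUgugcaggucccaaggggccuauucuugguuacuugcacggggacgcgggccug
Mir26a-2: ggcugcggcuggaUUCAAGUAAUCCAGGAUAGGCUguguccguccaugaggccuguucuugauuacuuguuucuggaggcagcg
Mir26b: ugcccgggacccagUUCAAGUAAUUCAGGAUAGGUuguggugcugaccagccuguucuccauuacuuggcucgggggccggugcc
On the plus strand of GRCm38.p6, Mir26a-1 lies at chr9:119031796-119031885 inside the bounds of Ctdspl. Mir26a-2 lies at chr10:126995530-126995613 inside Ctdsp2, and Mir26b at chr1:74394310-74394394 inside Ctdsp1. The 3p arms of the miR-26a genes, which would tell Mir26a-1 from Mir26a-2, had no probe on the array.

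Values are z-scores unless another scale is named. A z-score is the natural log of a spot's median signal, with the array's mean subtracted and divided by the array's SD over all spots, and was averaged over spots and then over probes. A miRNA was tested when the software detected it on every array of at least 1 group, which held for 178 miRNAs and for 2 of the 3 members. Differences were tested with limma, adjusted by Benjamini-Hochberg, and met the criteria with a limma p of at most 0.05, an adjusted p of at most 0.3 and a Z ratio of at least 1.5 in size, where the Z ratio is the difference between group means divided by the SD of that difference over all mouse miRNAs. Brightness depends on each probe, so levels of different miRNAs are not ranked against each other.

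The arrays of CR mice 2 and 3 had the fewest miRNAs detected and the lowest upper signals. The software detected 167 miRNAs on the array of CR mouse 2 and 151 on that of CR mouse 3, against 170 to 205 in SD and 182 to 191 in Met. The 75th percentile of log2 signal over detected probes was 8.29 and 8.11 on these arrays, while it ran from 8.88 to 9.34 in SD and from 8.99 to 9.21 in Met. CR mouse 4, at 8.60, was also below both groups, whereas CR mice 1 and 5 were at 8.96 and 9.07. The arrays lay on 2 slides: SD mice and Met mice 1 to 3 on slide 1, CR mice and Met mice 4 and 5 on slide 2. Diet and slide therefore cannot be told apart for CR against SD by group means alone. Values within a slide are given for the miR-26 members in each comparison that has them, but not for every other miRNA named.

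miR-26a-5p, the more studied member in liver, was detected on all 15 arrays, with 100 of 100 spots well above background in each group. Its z-score in SD mice 1 to 5 was 2.37, 2.59, 2.62, 2.59 and 2.72. In CR mice it was 2.80, 2.44, 2.21, 2.46 and 2.80, and in Met mice 2.68, 2.74, 2.74, 2.82 and 2.86. CR mice 2, 3 and 4 were low and CR mice 1 and 5 were as high as Met mice, so CR spanned the whole SD range and overlapped both other groups. The group means were 2.58 ± 0.128 in SD, 2.54 ± 0.255 in CR and 2.77 ± 0.0725 in Met (SD, n = 5 each), in the order Met, SD, CR, and no neighbors in this order differed by the limma test.

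miR-26b-5p, the paralog with the same seed, was also detected on all 15 arrays, again with 100 of 100 spots well above background in each group. In SD mice 1 to 5 its z-score was 1.58, 1.59, 1.86, 1.53 and 1.89. In CR mice it was 1.59, 0.468, 0.683, 1.27 and 1.64, and in Met mice 1.74, 1.67, 1.71, 1.78 and 1.85. CR mice 2 and 3 were far below every other array, CR mouse 4 was lower than all SD and Met mice, and CR mice 1 and 5 lay within the SD range but below all 5 Met mice. Group means were 1.69 ± 0.171 in SD, 1.13 ± 0.533 in CR and 1.75 ± 0.0704 in Met (SD, n = 5 each). Met and SD, the higher neighbors in this order, did not differ beyond their spread, and CR was the lowest group.

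**Figure D1:**
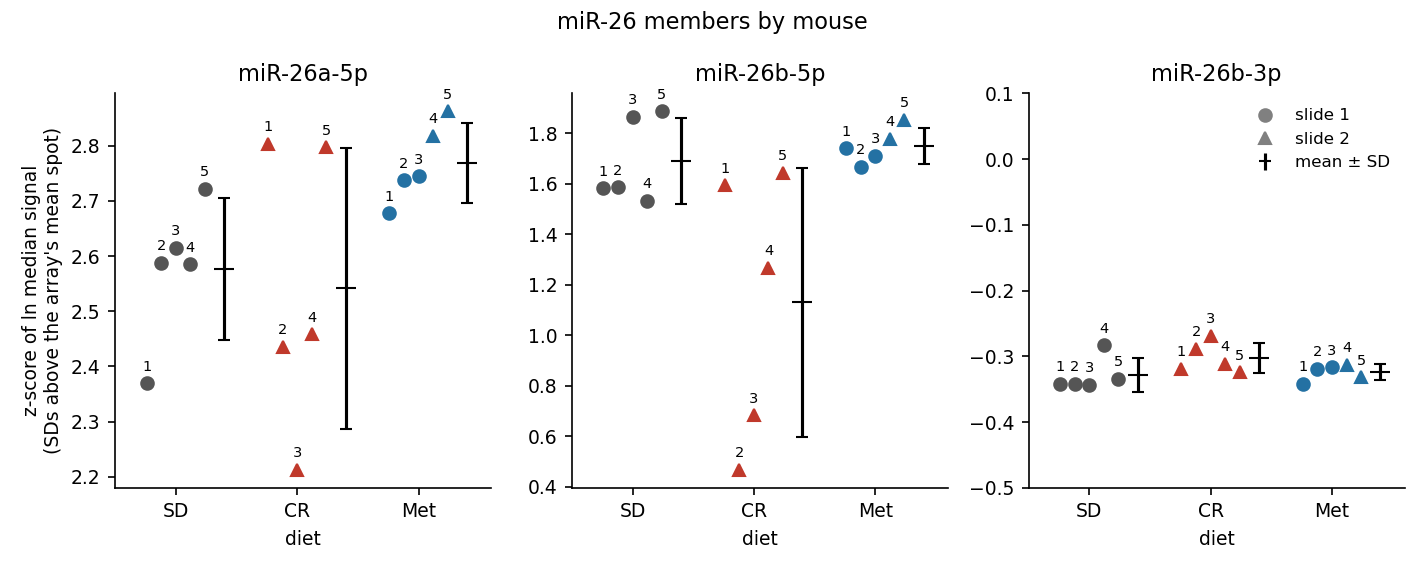
Each point is 1 mouse, numbered as in the text, and gives the z-score of a miR-26 member (vertical axis, in SDs above the array's mean spot, with a different range in each panel) by diet; circles are arrays on slide 1, triangles arrays on slide 2, and bars the group mean ± SD. For miR-26b-5p, CR mice 2 and 3 lie at 0.468 and 0.683 while SD and Met mice lie between 1.53 and 1.89, and miR-26b-3p stays near -0.3 throughout.

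miR-26b-3p, the passenger arm of the miR-26b hairpin, was at background. It was detected on 1 of 15 arrays, that of SD mouse 4, and 3 of 100 spots in SD, 0 of 100 in CR and 1 of 100 in Met were well above background. Its signal ran from 103 to 118, where the median of the negative control spots was 106 to 118. It was not tested, and no level or difference between diets can be read from it.

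The question of the first comparison is whether metformin changed the family. In Met against SD, 2 of 178 tested miRNAs met the criteria (1.12%), and neither was a miR-26 member. miR-26a-5p was higher by 0.192 ± 0.118 in z-score (SE, 95% interval -0.0598 to 0.444), with a Z ratio of 3.15 and an adjusted p of 0.930 by limma. This was the 6th highest difference among 178 miRNAs, and 4 of 5 Met mice were above all 5 SD mice but the criteria were not met. The Z ratio alone passed its limit, and differences between Met and SD had an SD of 0.0609 over all mouse miRNAs, against 0.166 between CR and SD. In the pairwise test of the study's methods, which takes the spread from Met and SD arrays alone, miR-26a-5p met the criteria with an adjusted p of 0.0698, along with 12 other miRNAs. In a limma fit of the Met and SD arrays alone the adjusted p was 0.345.

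miR-26b-5p differed less between Met and SD, by 0.0601 ± 0.189 in z-score (SE, 95% interval -0.342 to 0.462), with a Z ratio of 0.987 and an adjusted p of 0.930 by limma, and its direction turned to a Z ratio of -0.107 with the software's total gene signal. With the slide as a block the Z ratios were 2.69 for miR-26a-5p and 0.310 for miR-26b-5p. On slide 1 alone, with 3 Met and 5 SD arrays, they were again 2.69 and 0.310, and neither member met the criteria either way. Met mice 4 and 5, on the other slide, had the highest z-scores of miR-26a-5p in the Met group.

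The second comparison asks whether caloric restriction changed the family. miR-26b-5p fell in CR against SD by 0.559 ± 0.189 in z-score (SE, 95% interval -0.961 to -0.156), with a Z ratio of -3.36 and an adjusted p of 0.0390 by limma. In bulk liver RNA, fewer cells of a type and less RNA per cell cannot be told apart. This was a common direction: 31 of 178 miRNAs met the criteria (17.4%), 26 of them lower in CR (14.6%), and miR-26b-5p had the 14th lowest difference. As raw log2 signal, before any scaling, miR-26b-5p was at 8.30 in CR and 8.97 in SD, a ratio of 0.626. The median raw difference over all tested miRNAs was -0.04, but upper signals were lower in CR by more than this. The 75th percentile of detected probes had a median of 8.60 in CR and 9.02 in SD. Scaled to that percentile, the ratio of miR-26b-5p was 0.859. For miR-26a-5p the difference from SD was -0.0346 ± 0.118 (SE, 95% interval -0.286 to 0.217), with a Z ratio of -0.208 and an adjusted p of 0.840 by limma, and its direction turned under other scalings, as given next.

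The direction for miR-26a-5p in CR depended on the scaling, and that for miR-26b-5p did not. With log2 signals scaled to the 75th percentile of detected probes, which was low in CR mice 2, 3 and 4, the median difference of all tested miRNAs moved to 0.41, and the log2 difference between CR and SD was 0.23 for miR-26a-5p and -0.22 for miR-26b-5p. Both members were thus below the median shift of that scale. So were other bright miRNAs, such as miR-122-5p (0.21) and let-7a-5p (0.27), though not let-7b-5p (0.57). A place below that median is therefore not read as a result about the members. miR-26b-5p then had a Z ratio of -1.10 with an adjusted p of 0.0665 by limma and no longer met the criteria, which 124 miRNAs did on that scale, 117 higher and 7 lower in CR. It also fell short with total gene signal (Z ratio -1.21) and with background-subtracted signal (-1.25). Quantile normalization gave 23 higher and 18 lower, z-scores over detected miRNAs 17 higher and 21 lower, and the software's total gene signal 36 higher and 28 lower. The 75th percentile of all probes gave 0 higher and 27 lower. miR-26a-5p met the criteria only with quantile normalization, as higher in CR, with a Z ratio of 1.60 and an adjusted p of 0.0327 by limma.

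CR mice 2 and 3 carried much of the miR-26b-5p result. Without both of them, an alternative chosen after the data were seen, the difference from SD had a Z ratio of -1.63 and an adjusted p of 0.294 by limma and did not meet the criteria, as its p was 0.0976. Without CR mouse 2 alone the Z ratio was -2.70, and without CR mouse 3 alone it was -3.14, and the criteria were met in both cases. With the slide as a block, which rests on the 2 Met arrays of slide 2, the Z ratio was -3.72 but the adjusted p was 0.257, and the p of 0.0701 missed its limit. CR and SD share no slide, so no value within a slide exists for this pair.

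Against Met, CR livers also had less miR-26b-5p. It was lower by a z-score difference of -0.619 ± 0.189 (SE, 95% interval -1.02 to -0.216), with a Z ratio of -3.99 and an adjusted p of 0.0262 by limma, and all 5 CR mice were below all 5 Met mice. In this comparison 37 of 178 miRNAs met the criteria (20.8%), of which 29 were lower in CR (16.3%), and miR-26b-5p had the 11th lowest difference. miR-26a-5p differed by -0.227 ± 0.118 (SE, 95% interval -0.478 to 0.0252), with a Z ratio of -1.46 and an adjusted p of 0.147 by limma, and its direction turned to a log2 difference of 0.01 when scaled to detected probes. On that scale the median of all tested miRNAs moved to 0.34, and 101 miRNAs were higher and 12 lower in CR, beside 8 and 29 in z-scores. The miR-26a-5p difference met the criteria without CR mouse 1 (Z ratio -1.64) or without CR mouse 5 (-1.61), the CR mice with its highest values.

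Slide 2 held all CR arrays and 2 Met arrays, which allows this pair to be compared within a slide. There the Z ratio of miR-26b-5p was -4.09, close to that over both slides, with an adjusted p of 0.228 by limma over 7 arrays, and its p of 0.0697 missed the limit. That of miR-26a-5p was -1.78, with an adjusted p of 0.338 by limma, and did not meet the criteria. With the slide as a block over all arrays the Z ratio of miR-26b-5p was again -4.09 and met the criteria, with an adjusted p of 0.0812. Without CR mice 2 and 3 it was -2.63 with an adjusted p of 0.206 by limma, and still met the criteria. The exception among the scalings was the software's total gene signal, where a Z ratio of -1.26 fell short of the limit.

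**Figure D2:**
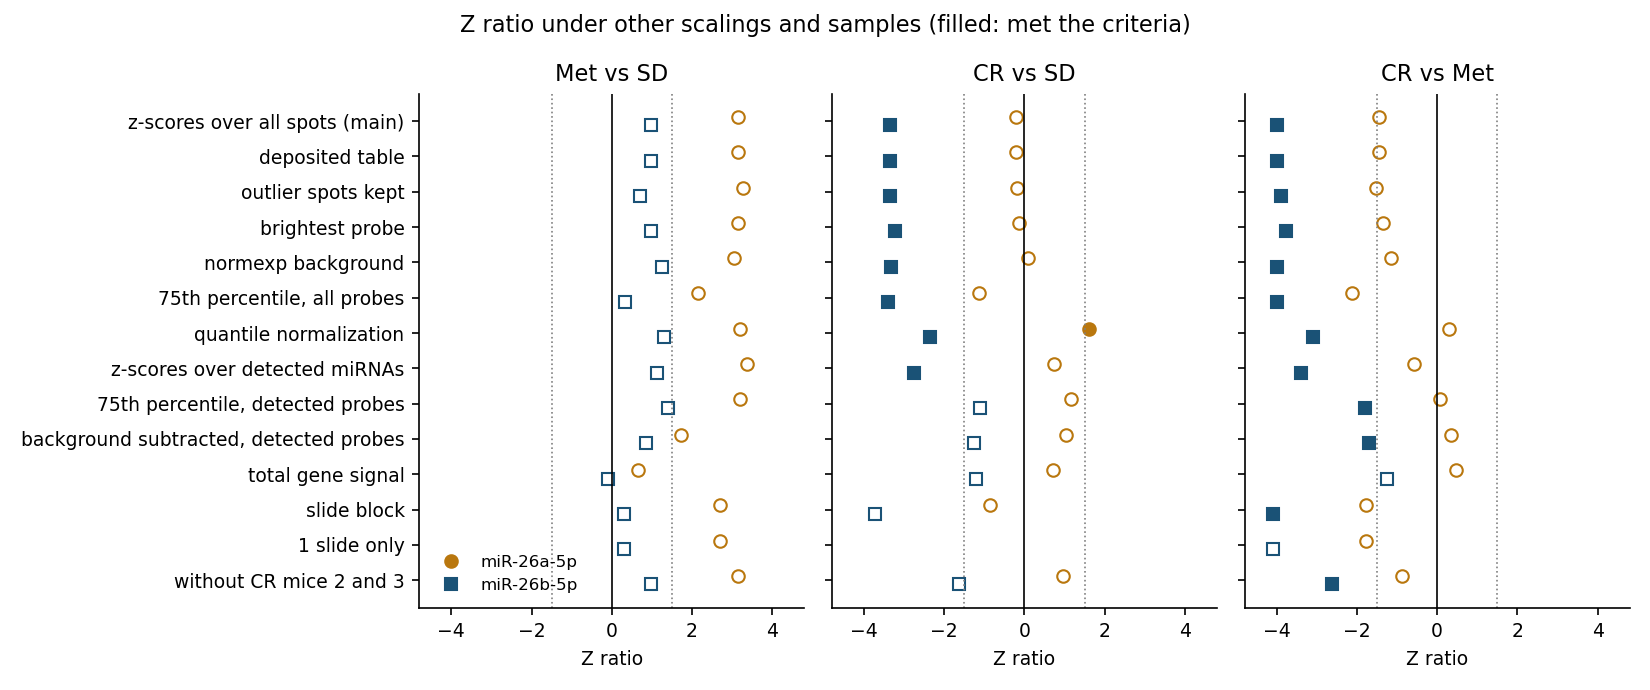
Z ratios (horizontal axis, no unit) of miR-26a-5p (circles) and miR-26b-5p (squares) are shown for each comparison under the main scaling and 13 other settings (vertical axis); filled symbols met the criteria and dotted lines mark 1.5 on either side. For CR against SD, miR-26b-5p is below 0 in every setting plotted, from -3.72 to -1.10, while miR-26a-5p lies on both sides of 0.

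Probes gave the same picture for each member. Each 5p member was read by 2 probes with 10 spots each per array, and the median SD among the spots of a probe was 0.033 to 0.039 in log2 signal. The raw log2 difference between CR and SD was -0.64 and -0.72 for the probes of miR-26b-5p. It was -0.21 and -0.23 for those of miR-26a-5p. Both probes of a member thus moved alike, and the gap between members was wider than the gap between probes of a member. The deposited files give no probe sequences, so how far a probe for one paralog also binds the other was not tested.

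**Figure D3:**
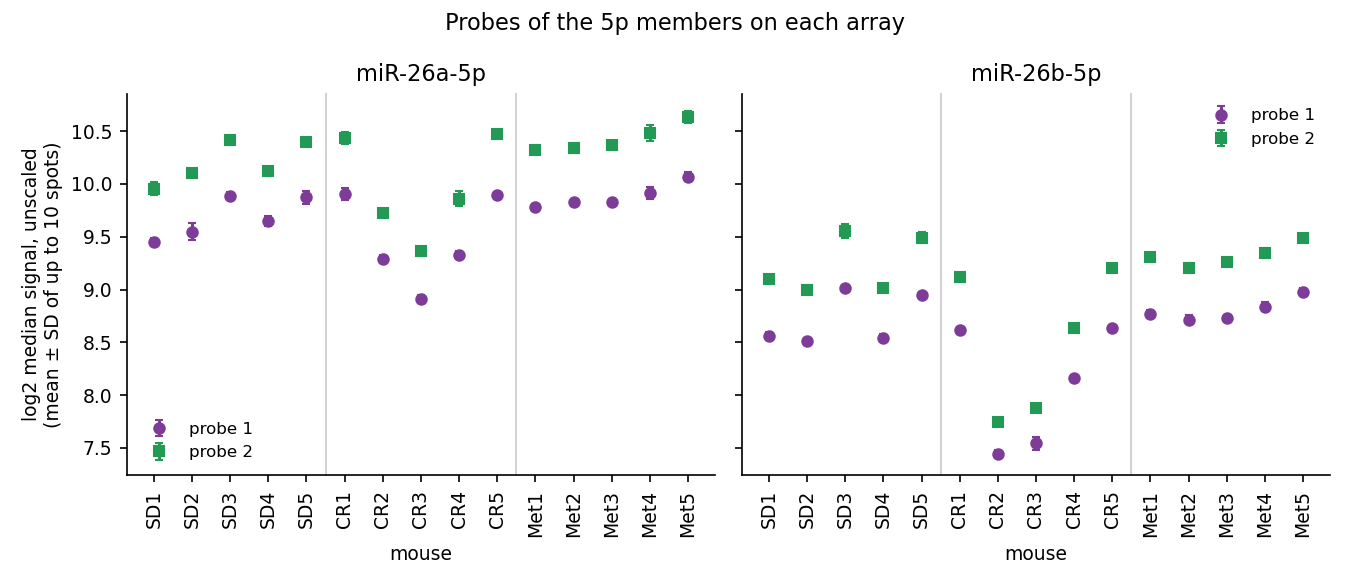
Raw log2 median signal (vertical axis, unscaled) of each probe of miR-26a-5p and miR-26b-5p is plotted for the 15 mice, with bars for the SD among up to 10 spots. Both probes of miR-26b-5p drop in CR mice 2, 3 and 4, and drop further than those of miR-26a-5p on the same arrays.

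A difference taken within an array needs no scaling, since a shift shared by all spots of an array cancels. The log2 signal of miR-26b-5p minus that of miR-26a-5p was -0.87, -1.07, -0.87, -1.11 and -0.91 in SD mice 1 to 5. It was -1.30, -1.91, -1.43, -1.20 and -1.27 in CR mice, and -1.01, -1.12, -1.10, -1.11 and -1.12 in Met mice. All 5 CR mice lay below all 10 SD and Met mice. CR mice 1 and 5 had 75th percentiles of 8.96 and 9.07, within the range of SD mice. The part of array signal in this difference was not tested. The size of this difference also reflects the probes, so only its change between groups is compared. Such a change shows that the signals of the members moved unequally, not that either of them was constant.

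Signals of the members stood in another relation on CR arrays than on SD and Met arrays. CR and SD share no slide, so diet and slide cannot be told apart for that pair. The within-array difference averaged -1.42 ± 0.29 in CR and -0.97 ± 0.12 in SD (SD, n = 5 each), a change of -0.45 that corresponds to a ratio of 0.730. Its two-sided exact permutation p was 0.00794, the smallest that 5 against 5 arrays can give, and 0.0119 after adjustment over the 3 comparisons. Against Met, at -1.09 ± 0.05 (SD, n = 5), the change in CR was -0.33, or a ratio of 0.796, with the same exact permutation p of 0.00794 and adjusted p of 0.0119. In Met against SD the change was -0.13 with an exact permutation p of 0.0714, also 0.0714 after adjustment, and the groups overlapped. Without SD mouse 4 it was -0.16, with an exact permutation p of 0.0238 that was unchanged by adjustment.

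On slide 2, the CR arrays differed from Met mice 4 and 5 by -0.31, and again did not overlap with them. The exact permutation p there was 0.238, from 21 ways to part 7 arrays. On slide 1, Met against SD gave -0.11 with an exact permutation p of 0.196 (adjusted 0.238). Met mice 4 and 5, at -1.11 and -1.12, lay within the range of the 3 Met mice on slide 1, a comparison of 2 arrays with 3 that was not tested. Without CR mice 2 and 3 the change was -0.29 against SD and -0.16 against Met, and the 3 CR mice left were still below all others. The adjusted p by the exact permutation test was then 0.0536 in both cases, where the smallest unadjusted p for 3 against 5 arrays is 0.0179. With the background subtracted by the software, also chosen after the data were seen, the changes were larger, at -0.81 against SD and -0.68 against Met. They were -0.80 and -0.67 with total gene signal, and -0.57 and -0.43 with the normexp background.

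**Figure D4:**
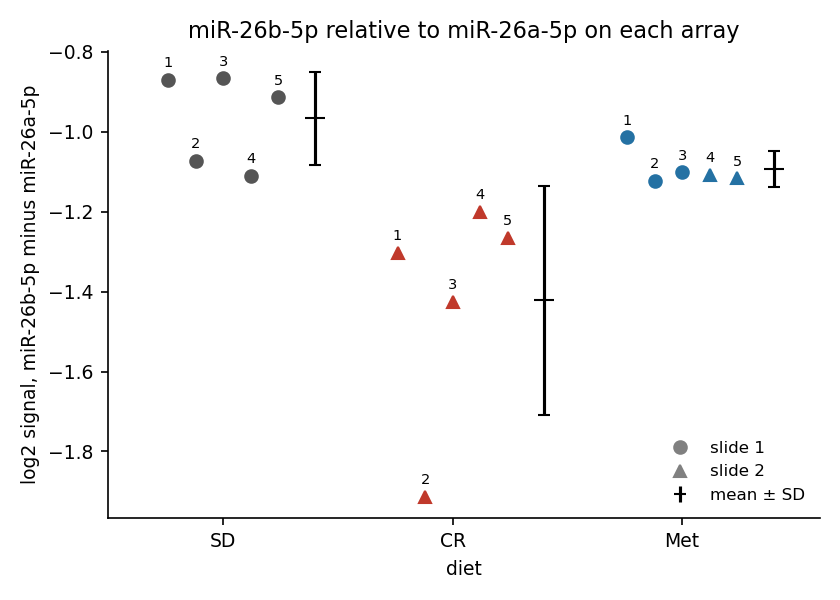
The log2 signal of miR-26b-5p minus that of miR-26a-5p on the same array (vertical axis, log2 units) is plotted for each mouse by diet, with circles for slide 1, triangles for slide 2 and bars for the mean ± SD. The 5 CR mice lie between -1.91 and -1.20, all below the SD and Met mice, whose lowest value is -1.12.

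Across the 15 mice the z-scores of the members were related, with Pearson's r = 0.740 (permutation p = 0.00264, adjusted 0.0106) and Spearman's rho = 0.693 (permutation p = 0.00545, adjusted 0.0135). Without CR mouse 3 and SD mouse 1, the 2 mice farthest from the median of miR-26a-5p, r was 0.720. CR mouse 2, the lowest in miR-26b-5p, stayed in, and no r of the members without CR mice 2 and 3 together is given. Within slide 1, which held 8 mice, r was 0.508 (exact p = 0.198, adjusted 0.264) and rho 0.595 (exact p = 0.132, adjusted 0.176). Within slide 2, which held 7, r was 0.897 (exact p = 0.00992, adjusted 0.0198) and rho 0.929 (exact p = 0.00675, adjusted 0.0135). The relation depended on the scaling, and on the log2 scale of detected probes it was near 0, at r = -0.0843 (permutation p = 0.753, adjusted 0.753) and rho = 0.146 (permutation p = 0.602, adjusted 0.602). r was also negative with quantile normalization (-0.241), total gene signal (-0.422) and background-subtracted signal (-0.484), and was 0.418 (permutation p = 0.121) with z-scores over detected miRNAs. Scaled to the 75th percentile of all probes, r was 0.898 (permutation p = 2e-05). The 4 relations given with an adjusted p were adjusted together. The z-scores of one array share its mean and SD, and how far this enters the pooled r was not tested. Mice of different diets were pooled in each relation, also within a slide, so differences between diets enter r and its p. No r within a single diet is given.

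miRNAs with the most similar profiles over the 15 arrays differed between the members. For miR-26a-5p they were miR-130a-3p (r = 0.967), miR-24-3p (0.938), miR-23b-3p (0.930), miR-27a-3p (0.908) and miR-23a-3p (0.887), most of which belong to the miR-23/27/24 clusters. For miR-26b-5p they were let-7f-5p (r = 0.993), miR-192-5p (0.985), miR-20a-5p (0.984), miR-30b-5p (0.983) and miR-106b-5p (0.982). The arrays of CR mice 2 and 3 weighed in both lists. Without them, r over 13 arrays was 0.943 for miR-130a-3p with miR-26a-5p and 0.949 for let-7f-5p with miR-26b-5p, and both still ranked the highest, whereas miR-192-5p dropped to rank 8 and miR-30b-5p to rank 10. The 8 of these 10 miRNAs with a RefSeq sequence all had other seeds than the miR-26 family.

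Most neighbors of miR-26b-5p were also lower in CR. In CR against SD, 4 of its 5 neighbors met the criteria and were lower, beside 17.4% called and 14.6% lower over all tested, with z-score differences of -0.568 for let-7f-5p, -0.887 for miR-192-5p, -0.253 for miR-20a-5p and -0.388 for miR-30b-5p, and adjusted p of 0.0598, 0.0257, 0.0432 and 0.0549 by limma. The 5th, miR-106b-5p, did not meet them, with a Z ratio of -1.17. These calls depended on the processing: let-7f-5p fell short of the criteria in 13 of 27 alternatives, miR-30b-5p in 8 of 27 and miR-20a-5p in 12 of 27, and miR-20a-5p turned to a value higher in CR when scaled to detected probes. With 1 mouse left out, the criteria were met in 6 of 10 cases for let-7f-5p and 5 of 10 for miR-20a-5p. None of the 5 neighbors of miR-26a-5p met the criteria in that comparison, with differences from -0.0897 to -0.0410. In CR against Met, where 20.8% of all tested were called, miR-130a-3p, the closest of them, met the criteria as lower (-0.279, Z ratio -1.80, adjusted p 0.0617 by limma), but fell short in 4 of 28 alternatives and turned to a value higher in CR in 4 more. These profiles were chosen for their likeness over the same arrays, so their counts describe them and test nothing further.

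Other miRNAs with known roles in hepatic metabolism give the setting for these values. Of 24 on the list, 21 were tested; miR-33-5p, miR-96-5p and miR-182-5p were detected on no array. In CR against SD, 8 of the 21 met the criteria (38.1%), all lower, beside 17.4% called and 14.6% lower over all 178 tested. The median difference was -0.191 in z-scores, beside -0.0161 over all tested. The direction depended on the scaling for many of the 21. Scaled to detected probes, log2 differences ran from -1.11 for miR-21a-5p to 0.40 for miR-143-3p. Others were above 0 there, such as miR-103-3p (0.30), or below it, such as miR-192-5p (-0.64), beside a median of 0.41 over all tested. The 8 include miR-101a-3p and miR-19b-3p, detected on 3 and 4 of the 5 CR arrays. With detection on all 15 arrays required the count was 6, beside 29 of the 139 miRNAs then tested. With the slide as a block it was 5, beside 17 of all 178 tested. The call of miR-30c-5p (-0.347) was lost in 17 of 27 alternatives and kept in 4 of 10 cases with 1 mouse left out. They included miR-21a-5p, a miRNA of liver injury and growth (-1.34), miR-192-5p, which is rich in hepatocytes (-0.887), miR-148a-3p, which acts on the low-density lipoprotein receptor (-0.813), and miR-29b-3p, which acts on collagens (-0.634). Another of them, miR-101a-3p (-0.398), turned to a value higher in CR when scaled to detected probes. miR-122-5p, the main miRNA of hepatocytes, which controls cholesterol synthesis, differed by 0.217 with an adjusted p of 0.155 by limma.

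In CR against Met, 9 of the 21 met the criteria (42.9%), all lower, beside 20.8% called and 16.3% lower over all tested. The count was 7 with detection on all 15 arrays required, beside 35 of the 139 miRNAs then tested. Within slide 2 it was 3, beside 12 of all 178 tested. The median was -0.215 in z-scores, beside -0.0292 over all tested. Scaled to detected probes, directions were again mixed, with -1.08 for miR-21a-5p and 0.31 for miR-143-3p, beside a median of 0.34 over all tested. The 9 were the 8 miRNAs called against SD and miR-34a-5p, a p53 target that acts on Sirt1 (-0.264), which turned to a higher value in CR when scaled to detected probes. In Met against SD none of the 21 met the criteria by limma, with a median of 0.0185 beside 0.00838. In the pairwise test of the study's methods 2 of the 21 did so, beside 13 of all 178 tested. In CR against SD the difference of -0.559 for miR-26b-5p lay between those of miR-29b-3p and miR-29c-3p (-0.546), while miR-22-3p (0.0920) and miR-29a-3p (0.0474) did not meet the criteria.

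Markers of liver cell types were summed on each array, and their part in the miR-26b-5p result was not tested. All 4 hepatocyte miRNAs were tested, and 3 of them, miR-192-5p, miR-194-5p and miR-148a-3p, were lower in CR than in SD and in CR than in Met, while miR-122-5p did not meet the criteria. These shares stand beside 17.4% and 20.8% called over all tested. The call of miR-194-5p was lost in 6 of 27 alternatives against SD and in 3 of 28 against Met. The calls of miR-192-5p and miR-148a-3p were each lost in 1 of 27 against SD and in 1 of 28 against Met. No value within slide 2 is given for these markers. The summed total gene signal of the 4 had a median of 18433 in CR, with 15269 and 10572 in CR mice 2 and 3, against 21252 in SD and 26772 in Met. These sums are not scaled between arrays, here or for the markers below. Scaled to the array, miR-122-5p had a mean z-score of 6.29 in CR, against 6.07 in SD and 6.33 in Met. Of the endothelial markers miR-126-3p and miR-126-5p, neither met the criteria in CR against SD. In CR against Met, miR-126-3p was lower (-0.423), a call lost in 16 of 28 alternatives. Their summed signal had a median of 651 in SD, 471 in CR and 788 in Met.

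No leukocyte, erythroid or stellate marker met the criteria in z-scores in any of the 3 comparisons, but this depended on the scaling. Over markers of all these cell types, 3 met them in CR against SD in z-scores, beside 31 of all 178 tested miRNAs. The count was 8 when scaled to detected probes and 8 with total gene signal, beside 124 and 64 of the 178. In CR against Met the marker counts were 4, 7 and 8, beside 37, 113 and 80 of all 178 tested. The marker counts thus rose along with those over all tested, and are not read as a result about the markers. Of 6 leukocyte miRNAs 4 were tested, with a median sum of 199 in SD, 87.9 in CR and 196 in Met. The erythroid markers miR-451a and miR-144-3p had a sum of 349, 33.9, 44.6, 270 and 788 in CR mice 1 to 5. The sum was 265 to 726 in SD and 291 to 621 in Met, and miR-486-5p had no probe. All 4 stellate or fibroblast miRNAs were tested, with a median sum of 158 in SD, 101 in CR and 202 in Met. In z-scores their median difference between CR and SD was -0.00738, with 2 higher and 2 lower. Scaled to detected probes all 4 were higher in CR, by a log2 difference of 0.28 to 0.59. On that scale the median of all tested miRNAs was 0.41, and 117 of 178 met the criteria as higher in CR.

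Markers of other tissues were at the floor on 14 arrays. CR mouse 5 was the exception, with a sum of 802 over 6 miRNAs, and with the muscle miRNA miR-133a-3p, miR-1a-3p and miR-206-3p detected. Without that mouse, miR-26b-5p was still lower in CR against SD, at a Z ratio of -3.64 and an adjusted p of 0.00930 by limma. The change of the within-array difference was then -0.49.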

How the data were processed

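Liver RNA of 15 mice was measured on Agilent mouse miRNA arrays, 1 per mouse. The scanner files deposited by the authors hold the spot intensity on a linear scale, not normalized, made with Feature Extraction 11.5.1.1, and flags for detection, saturation and outlier spots as deposited. The score values deposited by the authors, 1 per spot, are z-scores of the natural log of that signal, normalized within each array, and z-scores computed here differed from it by at most 0.0005. Each array had 13920 mouse miRNA spots, from 1937 probes and 696 names, and 0 member spots were saturated.

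Outlier spots were left out, z-scores averaged over spots and probes, and groups compared with limma 3.58.1 (R 4.3.3), with Benjamini-Hochberg adjustment over 178 tested miRNAs and all 3 groups in 1 fit. The code was tested on simulated data. Within-array differences used a two-sided exact permutation test. Tables were handled in pandas 2.3.3 with Python 3.11.15, permutations run with numpy 2.4.6 and scipy 1.17.1, and plots drawn with matplotlib 3.10.9.

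miRNAs are named if they are members, are among the 5 most alike to a member, share its seed, or are on a list of hepatic metabolism or cell markers. Members and lists were chosen with earlier results of these data known. Alternatives covered scaling, background (normexp, offset 50, on median spot signals), filter, summary, test, limits, blocks and left-out mice. Those with background-subtracted signal, outlier spots kept, CR mice 2 and 3 left out together, and other scalings of the correlation were chosen after the data were seen. No GC check across miRNAs was run, as 134 of 178 tested names had a sequence. RefSeq positions are on GRCm38.p6.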

Additional observations from a re-analysis of the deposited data

Results flagged for a closer look

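In each group of 5 mice, the value farthest from the others was tested against their spread, for the z-score of the 3 members and the within-array difference. Of 12 groups looked at, 2 held a mouse that stood apart, and about 1 in 20 would by chance.

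SD mouse 4 had a z-score of -0.2834 for miR-26b-3p, the highest of its group, and was the only mouse with that miRNA detected. The signal was at background.

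Met mouse 1 had a within-array difference of -1.013 (miR-26b-5p minus miR-26a-5p, log2), the highest in Met, where the other 4 mice lay between -1.122 and -1.101.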

How the results depend on the processing

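miR-26b-5p stayed lower in CR under every alternative, and kept its side of the limits in 23 of 28 against SD and 27 of 29 against Met. For miR-26a-5p, 9 of 28 alternatives turned the direction of CR against SD and 4 of 29 that of CR against Met. The cause was not tested for any result that moved. Signals near background, such as that of miR-26b-3p, limit what can be read.

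Z ratios are given for CR against SD, then CR against Met, and counts for Met against SD, CR against SD and CR against Met. Background-subtracted signal: miR-26a-5p 1.04 and 0.337, miR-26b-5p -1.25 against SD, miR-130a-3p 0.0879 against Met, counts 0, 75 and 78. Quantile normalization: miR-26a-5p 1.60 and 0.298, miR-130a-3p 0.323 against Met, count 0 for Met against SD. The 75th percentile of detected probes: miR-26a-5p 1.17 and 0.0696, miR-26b-5p -1.10 against SD, miR-20a-5p 0.877 and 0.508, miR-101a-3p 0.132 against SD, miR-34a-5p 0.578 and miR-130a-3p 0.0564 against Met, counts 0, 124 and 113. Total gene signal: miR-26a-5p 0.701 and 0.465, miR-26b-5p -1.21 and -1.26, and -0.107 for Met against SD, miR-130a-3p 0.252 against Met, counts 0, 64 and 80. z-scores over detected miRNAs: miR-26a-5p 0.740 against SD, count 0 for Met against SD. Normexp: miR-26a-5p 0.0754 against SD. No filter: count 1 for Met against SD.

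The pairwise test of the methods gave 13 miRNAs for Met against SD, miR-26a-5p (3.15) among them, and a fit of 2 groups gave 4. With the slide as a block, miR-26b-5p was at -3.72 against SD, with counts 0 for Met against SD and 17 for CR against SD. Within 1 slide, it was at -4.09 against Met, with counts 0 for Met against SD and 12 for CR against Met, and the within-array change against Met was -0.31. Without CR mice 2 and 3, miR-26a-5p was at 0.956 and miR-26b-5p at -1.63 against SD, within-array changes were -0.29 and -0.16, and counts were 5 for Met against SD and 18 for CR against Met. At an adjusted p of 0.05 with no Z ratio limit, counts were 1, 55 and 61.

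Leaving out each mouse in turn gave, for Met against SD, 2.33 to 3.46 for miR-26a-5p, 0.346 to 1.63 for miR-26b-5p, counts of 1 to 9 and within-array changes of -0.16 to -0.10. For CR against SD it gave -0.535 to 0.334, -3.64 to -2.70, 26 to 36 and -0.51 to -0.33. For CR against Met it gave -1.64 to -1.13, -4.16 to -3.42, 29 to 42 and -0.38 to -0.21.

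The correlation of the members turned to r = -0.484 with background-subtracted signal, -0.241 with quantile normalization, -0.0843 with the 75th percentile of detected probes and -0.422 with total gene signal. With the 75th percentile of all probes it was 0.898. For other named miRNAs, 609 of 740 alternatives kept the result, 123 fell short of the limits and 8 reversed.

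With the replicate number as a block, the Z ratios were as without it, at -3.36 and -3.99 for miR-26b-5p, counts were 2, 32 and 37, and no member's call changed. Mice of different groups share only a number: 4 of 15 same-numbered pairs had r over 0.1, from -0.56 to 0.71.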
